A study of Mus musculus with 6 samples.

Results

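The regions described here are the accessible regions at 10 genes of the Notch pathway in mouse nephron progenitor cells. The genes are the receptors Notch1, Notch2 and Notch3, the ligands Jag1, Jag2 and Dll1, the nuclear factor Rbpj, and the target genes Hes1, Hey1 and Heyl. A region was assigned to a gene when its midpoint lay within the RefSeq span of the gene or within 50 kb of it, in mm10 coordinates. This gave 41 of the 43523 distinct regions of the count table, between 1 region at Notch3 and 7 at Jag1, and no region was assigned to more than 1 gene.

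Nephron progenitors were taken from CD1 mice with no stated genetic change, at the embryonic stage E14.5 or on the day of birth (P0). Each stage had 3 libraries, and each library came from the pooled kidneys of 1 litter. Selection was on magnetic beads, by an antibody to the integrin Itga8, so the selection rests on a surface protein and not on a lineage reporter. Accessibility was measured on 50000 cells per library by ATAC-seq, which uses the enzyme Tn5 to tag DNA that is not covered by nucleosomes. The question for these genes is whether the accessibility of their promoters and surrounding regions differed between progenitors of the midgestation kidney and of the newborn kidney.

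Notch signalling passes between touching cells. A ligand of the Jagged or Delta-like family on 1 cell binds a Notch receptor on its neighbour, the receptor is cleaved, and its freed intracellular domain enters the nucleus and joins the DNA-binding protein Rbpj to switch on genes of the Hes and Hey families, which encode repressors of transcription. In the developing kidney the pathway is known for its part in the step from progenitor to nephron epithelium, in particular towards the proximal part of the nephron.

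Libraries held 6492996 to 12292629 counts over all regions, and the 41 regions held between 29 and 1263 counts in a library. Values are given as CPM (counts scaled to the library total after TMM correction for composition). The 3 libraries of a stage differed from each other by more than sampling noise, so all 6 entered as separate replicates. P0 replicate 2 had the lowest total and the lowest share of counts in promoter regions, 53.4%, against 56.1% to 62.2% in the other libraries. Of 8 markers of nephron progenitors, 5 had a start-site region (Six2, Cited1, Osr1, Sall1 and Itga8), and Eya1, Meox1 and Crym had none. This share is near the 57.1% of protein-coding genes with a RefSeq promoter entry that had a region within 1 kb of a start, so it does not mark the cells as progenitors. Six2, Cited1 and Itga8 had mean levels of 28.9, 23.5 and 37.3 CPM. Markers of other cells were also listed, with a start-site region at 5 of 6 ureteric genes, 3 of 6 stromal genes, 3 of 5 podocyte genes, 2 of 7 genes of the differentiating nephron, 1 of 7 endothelial genes and 0 of 5 immune genes. The summed levels of these lists overlapped between the stages, at 19.8 to 29.6 CPM at E14.5 and 22.7 to 31.2 CPM at P0 for the endothelial list, 137 to 164 and 115 to 146 CPM for the ureteric list, and 69.8 to 84.5 and 61.7 to 102 CPM for the stromal list. They were 70.9 to 82.7 and 57.7 to 83.7 CPM for podocytes, 72.8 to 84.1 and 77.8 to 92.2 CPM for the differentiating nephron, and 154.0 to 159.8 and 131.0 to 168.0 CPM for the progenitor list, and no region of these lists passed the test. The share of other cell types in the selected cells was not tested.

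Among the 10 genes, 8 had an accessible region at the start of transcription, and Jag2 and Notch3 had none within 1 kb of the RefSeq start in the regions analysed here. Of the 7 genes with a RefSeq promoter entry 5 had such a region, to be read against the 57.1% of 17492 protein-coding genes given above. The starts of Hes1, Hey1 and Heyl were set through a region that the table lists as their promoter and that covers an end of the RefSeq span, so an open start is part of the rule for these 3 and no finding. For Jag2 the nearest region began 9420 bp away, and for Notch3 it ended 74361 bp away. RefSeq promoter sequences (assembly GRCm38.p6, the same coordinates as mm10) were found for 7 of the 10 genes, in 9 entries, and not for Hes1, Hey1 and Heyl. The 250 bases before the start are shown for the 2 genes without a start-site region, Jag2 and Notch3, and for 2 genes with such a region, Jag1 and Notch2. Each is written 5′ to 3′ along the gene, and capitals mark every CG, the dinucleotide that is dense in the promoters of most widely expressed genes.

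Jag2, chr12:112929496-112929745, minus strand: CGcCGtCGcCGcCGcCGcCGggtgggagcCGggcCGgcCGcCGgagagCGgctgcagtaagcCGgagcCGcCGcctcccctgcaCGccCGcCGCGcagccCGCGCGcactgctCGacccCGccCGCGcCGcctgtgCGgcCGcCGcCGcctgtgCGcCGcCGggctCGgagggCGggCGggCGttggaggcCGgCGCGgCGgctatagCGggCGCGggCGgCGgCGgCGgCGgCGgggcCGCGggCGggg
Notch3, chr17:32166891-32167140, minus strand: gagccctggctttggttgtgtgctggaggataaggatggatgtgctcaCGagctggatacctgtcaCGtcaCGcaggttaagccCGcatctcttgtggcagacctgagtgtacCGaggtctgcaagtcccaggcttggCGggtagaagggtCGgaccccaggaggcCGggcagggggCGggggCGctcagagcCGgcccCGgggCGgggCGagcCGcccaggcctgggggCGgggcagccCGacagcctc
Jag1, chr2:137116521-137116770, minus strand: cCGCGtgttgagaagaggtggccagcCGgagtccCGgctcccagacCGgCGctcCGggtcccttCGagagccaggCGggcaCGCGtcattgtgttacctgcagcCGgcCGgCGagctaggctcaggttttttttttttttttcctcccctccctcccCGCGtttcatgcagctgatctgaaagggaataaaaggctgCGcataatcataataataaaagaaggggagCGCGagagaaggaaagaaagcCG
Notch2, chr3:98013288-98013537, plus strand: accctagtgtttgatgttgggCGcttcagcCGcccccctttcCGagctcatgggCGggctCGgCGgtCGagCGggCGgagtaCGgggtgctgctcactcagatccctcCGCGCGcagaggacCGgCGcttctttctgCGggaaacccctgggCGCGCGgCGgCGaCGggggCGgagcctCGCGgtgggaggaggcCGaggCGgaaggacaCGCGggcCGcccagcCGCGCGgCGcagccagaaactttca

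The Jag2 stretch held 54 CG and was 87.2% G or C, and it differed in this from the others, which held 17 (Notch3), 20 (Jag1) and 34 (Notch2) at 68.8%, 57.2% and 72.0% G or C. In full promoter entries, which reach 50 bases past the start, CG density and openness went together over the genome: the median count was 21 CG in entries of protein-coding genes with a region within 1 kb and 4 CG in those without. Of the 5263 entries with at least 25 CG, 86.1% had a region. The Jag2 entry held 63 CG, a count that 9 of 21263 protein-coding entries reached, and 5 of these 9 had no region within 1 kb. The Notch3 entry held 25 CG. Whether base composition has a part in the absence of a region at the Jag2 start was not tested.

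The letters of the Rbpj core motif, GTGGGAA, were searched on both strands of the 9 entries and were in none of them, and neither was the relaxed form GTGNGAA, which includes it. The entries do not include Hes1, Hey1 and Heyl, so the promoters of the target genes were not searched. Among the 21263 protein-coding entries, 6.07% held GTGGGAA and 13.2% GTGNGAA. A pair of cores facing each other at the spacing of the known paired site was in 0 of the 32851 entries of all gene types. The Hes and Hey class of E-box, CACGNG, was in 6 of the 9 member entries: both entries of Dll1 and those of Jag1, Jag2, Notch2 and Notch3. It was in 31.4% of protein-coding entries and in 40.8% of those with a region within 1 kb. These are matches of letters in a window of 300 bases, not binding sites.

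At the 8 start sites, levels were compared per kb of region, because the regions ranged from 702 bp at Hes1 to 2642 bp at Dll1. Jag1 had the highest mean over the 6 libraries, 47.7 CPM per kb (lowest library 34.0, highest 60.1), followed by Rbpj with 39.6 (28.1 to 49.4) and Hey1 with 37.4 (21.5 to 46.5). Hes1 came next with 19.9 CPM per kb (11.6 to 24.5), then Heyl with 13.2 (10.6 to 16.0), Dll1 with 12.7 (11.2 to 16.3), Notch2 with 12.5 (7.83 to 16.2) and Notch1 with 7.26 (5.99 to 8.88). Since the genes were measured in the same libraries, their order was also read within each library. Jag1 was above every other gene in 6 of 6 libraries, although by small ratios in some (1.02 to 1.35 times Rbpj and 1.01 to 1.59 times Hey1). Rbpj was above Hey1 in 4 of 6, so these neighbours were not separated. Hey1 was 1.53 to 2.40 times Hes1, in 6 of 6. Hes1 was above Dll1 and Notch2 in 6 of 6 but above Heyl in 4 of 6, and Heyl, Dll1 and Notch2 changed order between libraries. Among all promoter regions of the table, the Jag1 level per kb stood above 94.8%, Rbpj above 92.0% and Hey1 above 91.0%, while Notch1 stood above 10.6%. Notch1 was below every other gene per kb in 6 of 6 libraries, with Notch2 next at 1.31 to 2.07 times its level. In CPM per region, without regard to width, Hes1 had the lowest mean, 14.0, and Notch1 had 18.3.

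**Figure D1:**
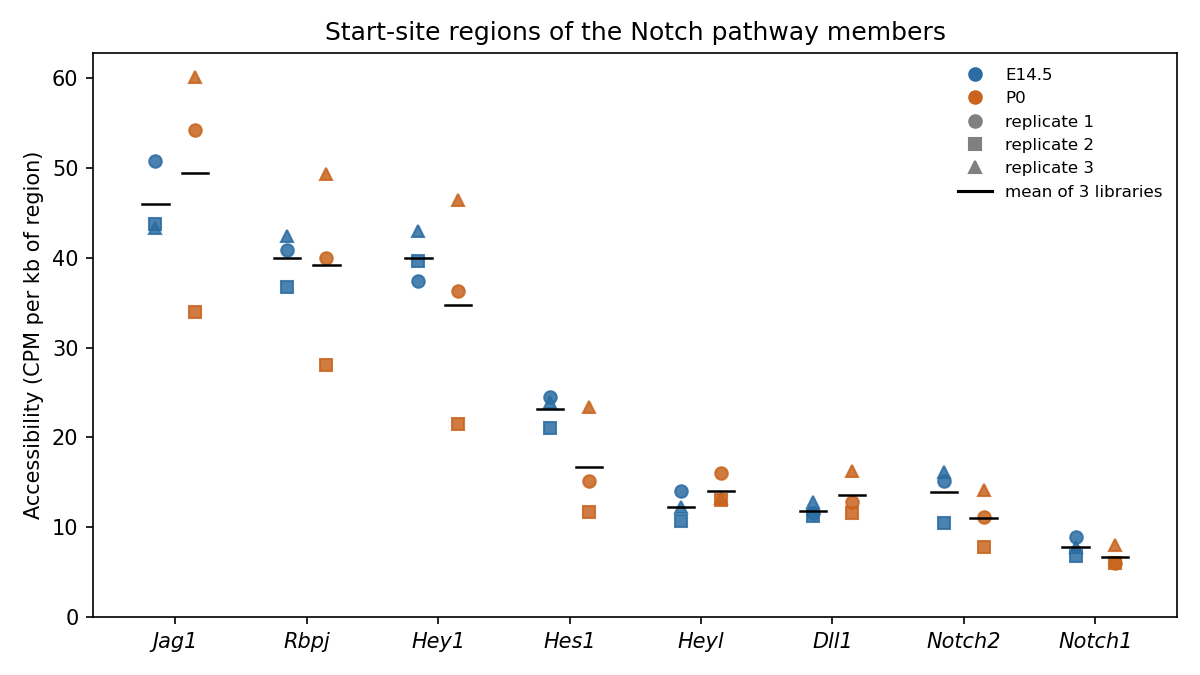
Accessibility of the 8 start-site regions (y axis, CPM per kb of region) for each library, in genes ordered by their mean. Blue points are E14.5 and orange points P0, symbols give the replicate, and black lines are means of 3 libraries; Jag1, Rbpj and Hey1 have the highest means, the lowest Hey1 library lies below the highest Hes1 library, and the stages overlap at every gene.

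None of the 41 regions passed the test between the stages. In edgeR's quasi-likelihood test over all regions, with a Benjamini-Hochberg adjusted p under 0.05, 0 of 41 were called, where 4.73% of all regions were called (1.79% higher and 2.94% lower at P0). With limma-voom the count was 0 as well, where 4.38% of all regions were called. With the DESeq2 Wald test it was 1, where 6.38% of all regions were called. By kind, 0 of the 20 member regions listed as promoters were called, against 0.851% of all promoter regions, and 0 of the 21 others, against 6.59% of all regions outside promoters. At an unadjusted p under 0.05 there were 7 of 41 (17.1%), against 18.7% of all regions. That count was 2 without P0 replicate 1 and 3 without E14.5 replicate 3, where 12.3% and 12.1% of all regions had such a p. The libraries of the 2 stages did not overlap in 8 of 41 regions (19.5%), against 24.2% of all regions: 6 higher at P0, where all regions gave 11.8%, and 2 lower, where all regions gave 12.4%. The fold changes pointed up at 21 regions and down at 20, with a median log2 fold change of 0.01, equal to the median over all regions of 0.01. These shares lie near the background or below it.

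A count of 0 calls does not show that the regions were alike at both stages. The standard errors of the log2 fold changes ran from 0.19 to 0.39. For 34 of the 41 regions the 95% interval of the log2 fold change lay between -1 and 1, so a 2-fold difference fell outside it, and the other 7 intervals reached further. In simulated counts for all 43523 regions, with a coefficient of variation of 0.2, 99 of 200 regions changed 2-fold were recovered. Only these 200 regions were changed there, while 4.73% of all regions were called in the data. The adjusted threshold was therefore stricter in the simulation, and its count does not give the chance of a call at the 41 regions.

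**Figure D2:**
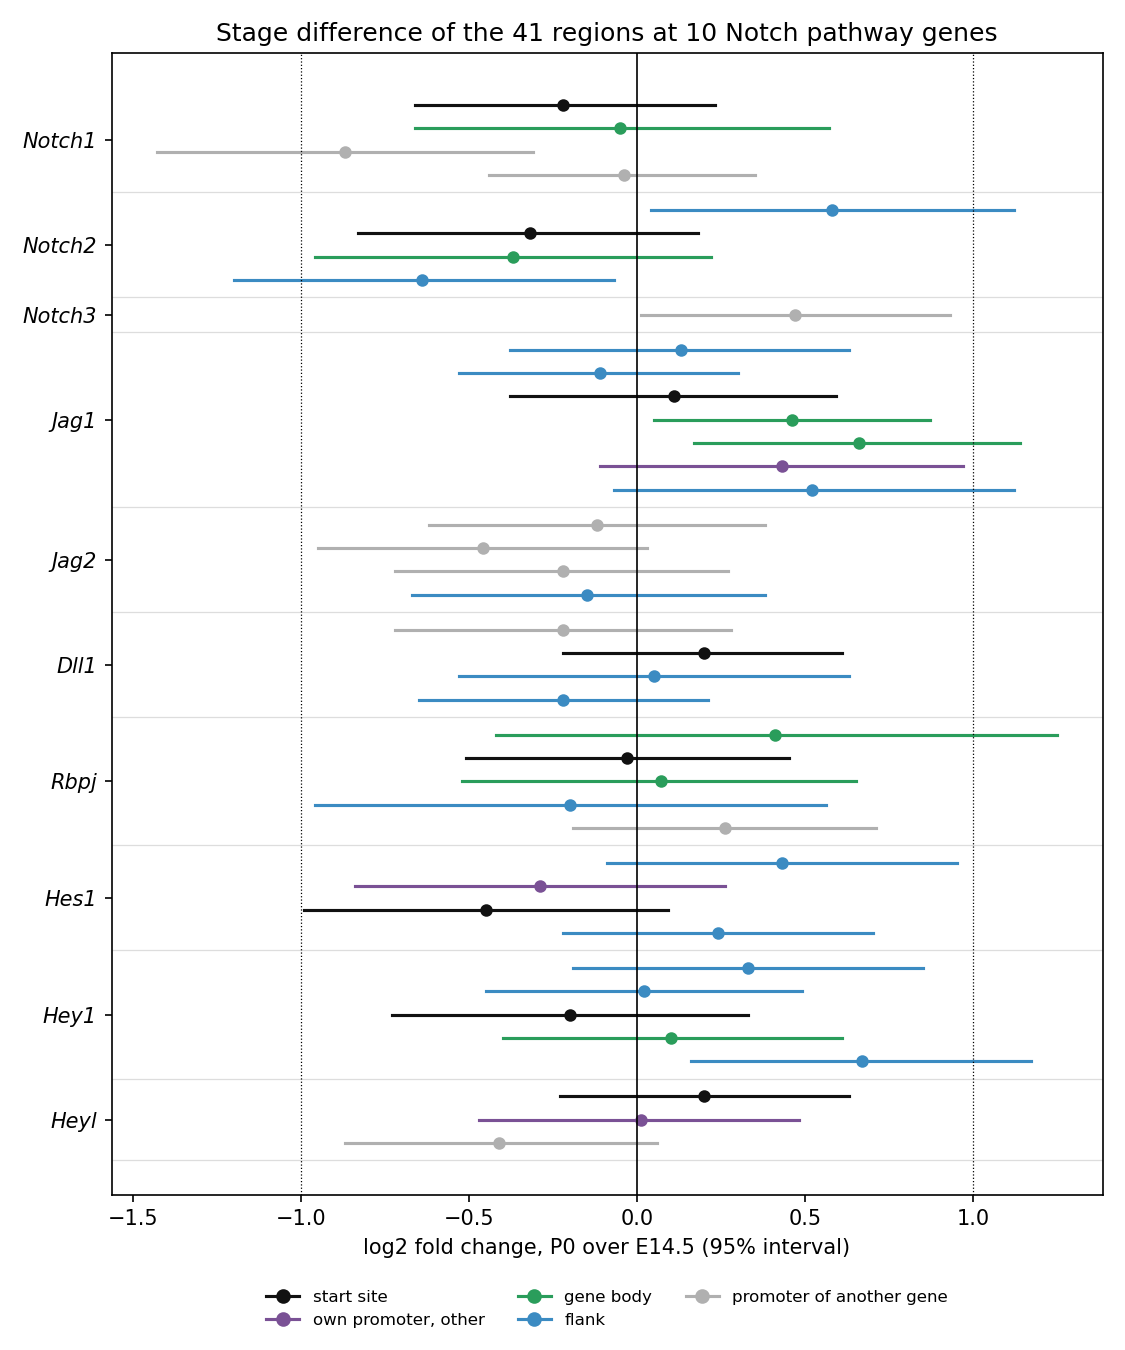
Log2 fold change of P0 over E14.5 (x axis) with its 95% interval from the edgeR fit for each of the 41 regions, in rows grouped by gene and ordered along the direction of transcription. Colours give the kind of region, and dotted lines mark a 2-fold difference; values ran from -0.87 at a neighbouring promoter near Notch1 to 0.67 beyond the 3′ end of Hey1, and no region passed the test.

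Of the receptors, Notch1 had 4 regions. Its start-site region (chromosome 2, 26502406 to 26504931, overlapping an exon) had 22.4, 17.2 and 19.7 CPM in E14.5 replicates 1, 2 and 3 and 15.3, 15.1 and 20.3 CPM in P0 replicates 1, 2 and 3. The stages overlapped, and the estimate was below 0 (log2 fold change -0.22, SE 0.21, 95% interval -0.66 to 0.23, adjusted p = 0.635 in edgeR). The region with the smallest p of all 41 was also assigned to Notch1, but it lay 58.1 kb from its start, past the 3′ end, and the table lists it as the promoter of the long non-coding RNA 0610009E02Rik. This region (26444600 to 26446925) had 87.0, 44.1 and 50.3 CPM at E14.5 and 32.2, 25.4 and 41.2 CPM at P0. Every P0 library was below every E14.5 library, the log2 fold change was -0.87 (SE 0.26, 95% interval -1.43 to -0.31), and the adjusted p from edgeR was 0.0768. It passed the threshold in the DESeq2 Wald test (adjusted p = 0.0243) and in edgeR without E14.5 replicate 2 (0.0429) or without P0 replicate 3 (0.0279). Without E14.5 replicate 1, the library with 87.0 CPM, its log2 fold change was -0.51. It is the only region of the 41 that passed in any of the settings tried.

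Notch2, the receptor on which nephron formation mainly depends, had 4 regions, whose fold changes differed in sign. Its start-site region (chromosome 3, 98012940 to 98015199) had 34.3, 23.7 and 36.6 CPM at E14.5 and 25.2, 17.7 and 31.9 CPM at P0, and the groups overlapped (log2 fold change -0.32, SE 0.24, adjusted p = 0.510 in edgeR). A region within the gene and outside exons, 11.2 kb into it (98024128 to 98025331), averaged 12.3 ± 2.72 CPM in the E14.5 and 9.39 ± 2.94 CPM in the P0 libraries (SD, n = 3 per stage), with overlapping groups. In the 5′ flank, 32.2 kb before the start (97980693 to 97981992), the levels were 9.37, 8.32 and 7.01 CPM at E14.5 and 11.8, 9.69 and 15.2 CPM at P0, so that every P0 library was the higher. In the 3′ flank (98197903 to 98198866) they were 8.90, 12.8 and 9.81 CPM at E14.5 and 6.77, 5.75 and 7.66 CPM at P0, so that every P0 library was the lower. The log2 fold changes of these 2 flanking regions were 0.58 (SE 0.25) and -0.64 (SE 0.26), with adjusted p-values of 0.228 and 0.201 in edgeR. Without P0 replicate 3 the first of them was 0.37.

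Notch3 had 1 region, which the table lists as a promoter of another gene, with the identifier ENSMUSG00000002791 (chromosome 17, 32090795 to 32092529). It lay 75.2 kb from the Notch3 start. Its levels were 13.5, 10.4 and 11.4 CPM at E14.5 and 15.5, 18.5 and 15.2 CPM at P0. The groups did not overlap, and the log2 fold change of 0.47 (SE 0.22) had an adjusted p of 0.254 in edgeR. No region lay inside the Notch3 gene among those analysed here.

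Of the ligands, Jag1 had the most regions. Of its 7 log2 fold changes 6 were above 0, where 51.1% of all regions and 59.3% of all regions outside promoters were above 0. In 3 of 7 regions every P0 library was above every E14.5 library, which held for 11.8% of all regions, and no test was made of these counts. None of the 7 passed the test. The start-site region (chromosome 2, 137116198 to 137117855) had 84.3, 72.6 and 71.9 CPM at E14.5 and 89.9, 56.4 and 99.7 CPM at P0. The P0 libraries spread on both sides of the E14.5 libraries there, and the difference was small against its error (log2 fold change 0.11, SE 0.23, 95% interval -0.38 to 0.59, adjusted p = 0.855 in edgeR). The pair of regions within the gene and outside exons came closest to the threshold.

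The nearer of them, 2.07 kb into Jag1 (137113641 to 137115264), is listed as overlapping a FANTOM enhancer and was the most accessible member region outside the start sites and promoters. It had 41.5, 44.6 and 38.1 CPM at E14.5 and 57.1, 49.8 and 63.6 CPM at P0, and the groups did not overlap (log2 fold change 0.46, SE 0.19, adjusted p = 0.205 in edgeR). The farther, 17.8 kb into the gene (137097794 to 137099649), had 16.6, 17.3 and 10.4 CPM at E14.5 and 25.7, 19.8 and 24.3 CPM at P0, again without overlap (log2 fold change 0.66, SE 0.23, adjusted p = 0.119 in edgeR). Across the other tests, scalings, filters and left-out libraries, the adjusted p-values of the pair ran from 0.0916 to 0.564 and from 0.0804 to 0.457. In the authors' deposited table, the nearer region had a log2 fold change of 0.46 and an adjusted p-value of 0.116, the smallest of the 41. Upstream of Jag1, the regions 19.8 kb and 49.4 kb before the start had log2 fold changes of -0.11 and 0.13.

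Jag2 had 4 regions, all upstream of its start, and 3 of them are listed as promoters of other genes (Nudt14, Btbd6 and the identifier ENSMUSG00000097476). All 4 log2 fold changes were below 0, from -0.46 to -0.12, and the stages overlapped in each. The region with the highest mean among them, listed for ENSMUSG00000097476 (chromosome 12, 112949181 to 112951089), had 27.0, 26.5 and 33.2 CPM at E14.5 and 21.4, 14.1 and 26.9 CPM at P0 (log2 fold change -0.46, SE 0.23, adjusted p = 0.304 in edgeR). Only the value of P0 replicate 3 reached the range of the E14.5 libraries. The log2 fold change was -0.71 without that library and -0.25 without P0 replicate 2.

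Dll1, the Delta-like ligand, had 4 regions and none in which the stages separated. Its start-site region (chromosome 17, 15374443 to 15377084) covers both RefSeq starts of the gene, and the table lists it for the identifier ENSMUSG00000097566. Levels were 30.5, 29.6 and 33.7 CPM at E14.5 and 33.7, 30.6 and 43.0 CPM at P0 (log2 fold change 0.20, SE 0.20, adjusted p = 0.645 in edgeR). Without P0 replicate 3, the highest library, the log2 fold change was 0.03, and without P0 replicate 2 it was 0.30. The promoter of the neighbour Fam120b, 20.4 kb upstream, averaged 40.6 ± 4.52 CPM in the E14.5 and 34.7 ± 11.5 CPM in the P0 libraries (SD, n = 3 per stage).

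Rbpj, which encodes the DNA-binding partner of the cleaved receptor, had 5 regions. That region (chromosome 5, 53588754 to 53590735) had 81.0, 72.8 and 84.1 CPM at E14.5 and 79.3, 55.7 and 97.9 CPM at P0, so the groups overlapped (log2 fold change -0.03, SE 0.22, 95% interval -0.51 to 0.45, adjusted p = 0.967 in edgeR). On the linear scale this interval runs from 0.70 to 1.37 times the E14.5 level. The promoter of the neighbour Cckar (53706154 to 53708506), a receptor gene for the hormone cholecystokinin, had 16.6 ± 3.89 CPM at E14.5 and 19.9 ± 1.21 CPM in the P0 libraries (SD, n = 3 per stage), with overlapping groups. The 4 regions other than the start site had log2 fold changes from -0.20 to 0.41, and the largest of these belonged to a region where P0 replicate 2 alone stood high, at 15.0 CPM, while the other 5 libraries had 3.50 to 8.78 CPM.

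Of the targets, Hes1 had 4 regions, and its start site had the lowest fold change of the 8 start sites. The start-site region (chromosome 16, 30064936 to 30065637) had 17.2, 14.8 and 16.8 CPM at E14.5 and 10.6, 8.17 and 16.4 CPM at P0. P0 replicates 1 and 2 lay below all E14.5 libraries and P0 replicate 3 among them, and the log2 fold change was -0.45 (SE 0.25, 95% interval -0.99 to 0.09, adjusted p = 0.370 in edgeR). Without P0 replicate 2 it was -0.26, and without P0 replicate 3 it was -0.80, so the size of this difference moved with single libraries by over 1.5 times. A second region listed as Hes1 promoter, 1.47 kb upstream (30063226 to 30064548), had 40.2, 28.6 and 28.5 CPM at E14.5 and 27.8, 15.7 and 35.1 CPM at P0 (log2 fold change -0.29, SE 0.26). That value was -0.04 when P0 replicate 2 was left out, -0.11 when E14.5 replicate 1 was, and -0.57 when P0 replicate 3 was. On either side of these, the region 30.9 kb upstream, which carries a listed Six2 motif match, and the region 5.05 kb downstream had log2 fold changes of 0.43 and 0.24, with overlapping groups in both.

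Hey1 had 5 regions. At its start site (chromosome 3, 8666596 to 8668379) the levels were 66.8, 70.8 and 76.7 CPM at E14.5 and 64.7, 38.3 and 82.9 CPM at P0, and P0 replicate 2 stood below the other 5 libraries (log2 fold change -0.20, SE 0.25, adjusted p = 0.730 in edgeR). The region with the highest mean CPM elsewhere, 18.5 kb before the start (8684588 to 8686452), had 16.2 ± 3.15 and 16.5 ± 2.55 CPM (SD, n = 3 each). Per kb it had 8.69 and 8.85 CPM, less than the 19.7 and 21.0 CPM per kb of a short region of 562 bp within the gene. Past the 3′ end, 23.8 kb from the start, a region with a listed Foxm1 motif match (8642221 to 8644197) had 11.9, 10.9 and 9.69 CPM at E14.5 and 13.0, 16.9 and 21.5 CPM at P0. Every P0 library was higher there, and the estimate was the largest among those above 0 (log2 fold change 0.67, SE 0.23, adjusted p = 0.128 in edgeR). Leaving out P0 replicate 3 lowered it to 0.44.

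Heyl had 3 regions, and the stages overlapped in each. Its start-site region (chromosome 4, 123233016 to 123234416) had 19.6, 14.9 and 17.2 CPM at E14.5 and 22.4, 18.2 and 18.6 CPM at P0 (log2 fold change 0.20, SE 0.20, adjusted p = 0.654 in edgeR). A second region listed as a promoter of Heyl, inside the gene and with a listed Six2 motif match, had a log2 fold change of 0.01. The promoter of Pabpc4, a poly(A)-binding protein gene past the 3′ end of Heyl, had 29.5, 18.7 and 26.3 CPM at E14.5 and 20.9, 15.6 and 19.4 CPM at P0 (log2 fold change -0.41, SE 0.22, adjusted p = 0.341 in edgeR). Without E14.5 replicate 1, its highest library, the log2 fold change was -0.26.

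**Figure D3:**
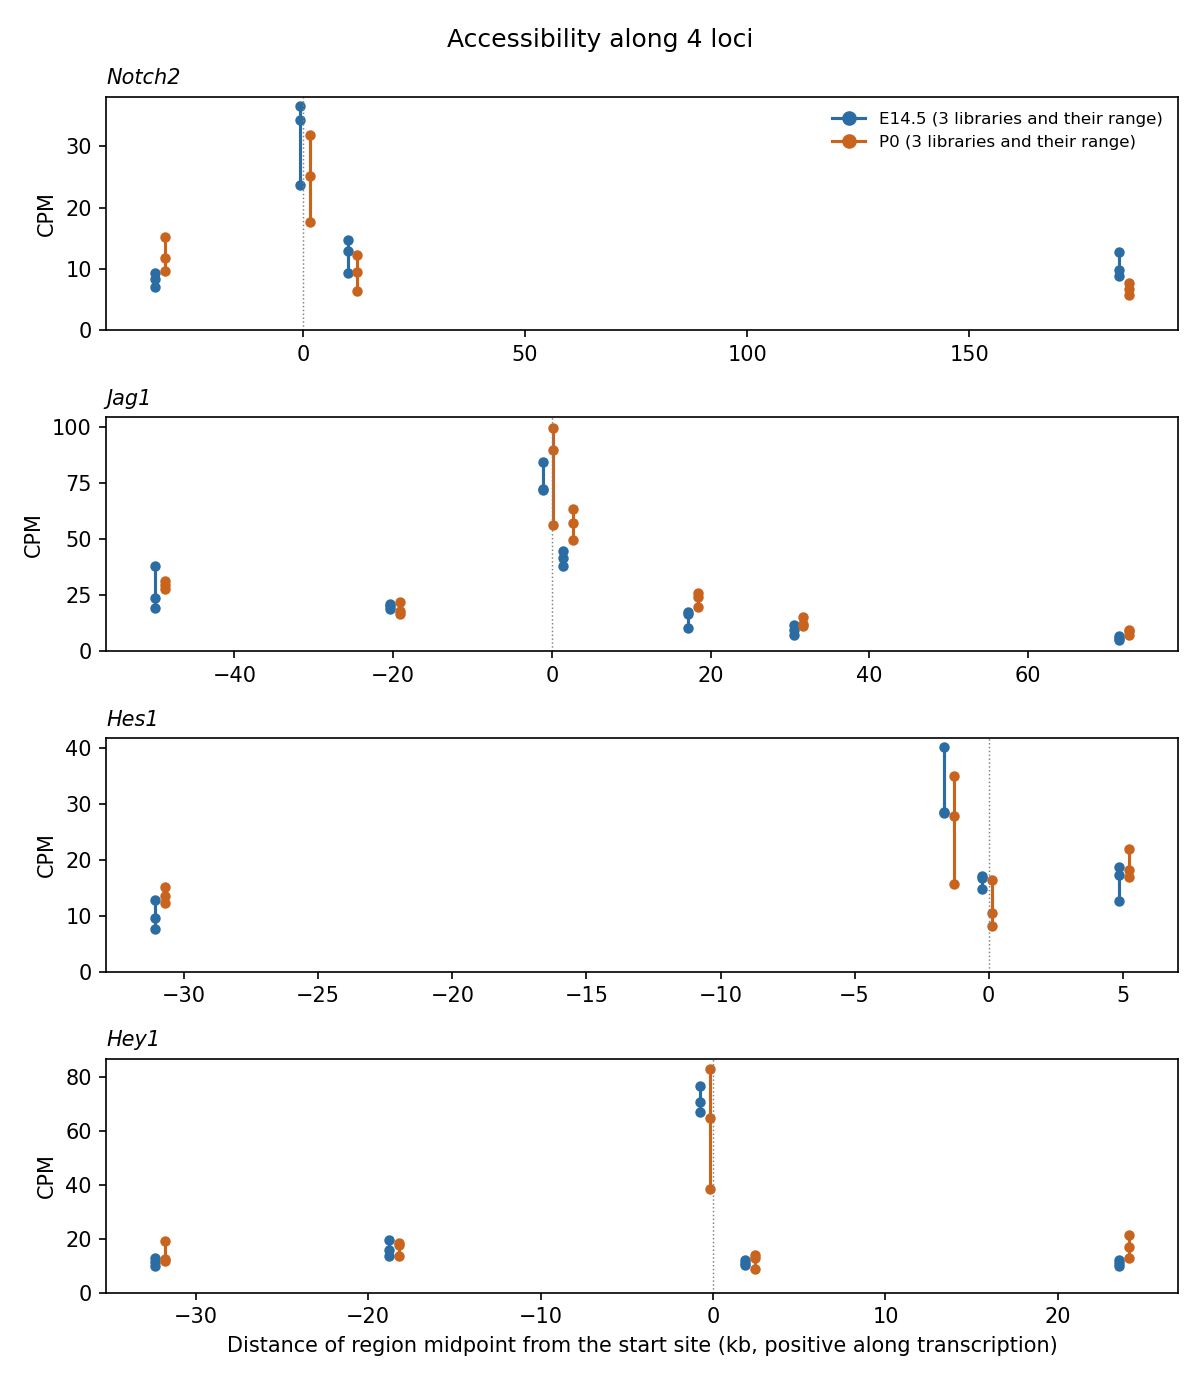
Accessibility in CPM (y axis) of each region assigned to Notch2, Jag1, Hes1 and Hey1, placed by the distance of its midpoint from the start site in kb, with the stages set slightly apart sideways. Blue is E14.5 and orange P0, and each line spans the 3 libraries; the start-site regions are the highest at Notch2, Jag1 and Hey1, while at Hes1 the region 1.47 kb upstream is the highest.

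Across the 8 start sites, P0 replicate 2 was the lowest of the 6 libraries at 6, and at promoter regions of the whole table it was the lowest in 49.4%. At the 21 member regions that are no promoter it was the lowest in 5 (23.8%), against 11.6% of all such regions. Without it the log2 fold change was -0.15 at Notch1, -0.14 at Notch2, 0.31 at Jag1, 0.30 at Dll1, 0.16 at Rbpj, -0.26 at Hes1, 0.05 at Hey1 and 0.25 at Heyl, so the sign turned at Rbpj and Hey1. Without P0 replicate 3 the values were -0.39, -0.56, -0.07, 0.03, -0.24, -0.80, -0.48 and 0.23 in the same order of genes, so the sign turned at Jag1. Of the 8 start sites, Heyl moved least when either of these libraries was left out. The Heyl value was 0.08 without P0 replicate 1 and 0.09 without E14.5 replicate 2, and the Notch1 value was -0.12 without E14.5 replicate 1.

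A comparison within each locus does not depend on the scaling of the libraries. It was chosen after the values had been seen. The counts of regions outside promoters were divided by those of the start-site region, at the 7 genes that had both. At Hes1 this ratio was 1.54, 1.72 and 1.60 at E14.5 and 2.88, 3.93 and 2.16 at P0, and at Hey1 it was 0.705, 0.712 and 0.668 at E14.5 and 0.969, 1.47 and 0.731 at P0. The groups did not overlap at these 2 genes, and they overlapped at the remaining 5. By the same rule, the ratio was higher at P0 without overlap at 15.6% of 7602 protein-coding genes and lower without overlap at 4.18%, and neighbouring genes can share regions in this count. With 2 of 7 genes, nothing particular to these genes can be read from the difference. In two-sided exact permutation tests, which with 3 libraries against 3 cannot give a p under 0.1, both had p = 0.1, and p = 0.35 after Benjamini-Hochberg adjustment over the 7 genes. Over the whole table, the ratio of counts outside promoters to counts in promoters averaged 0.680 ± 0.0908 in the E14.5 and 0.782 ± 0.0902 in the P0 libraries (n = 3 per stage, SD; p = 0.3 in an exact permutation test), so the ratio was also higher on average over all regions. P0 replicate 2 had the highest ratio in the whole table, 0.873, and the highest at Hes1 and Hey1.

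**Figure D4:**
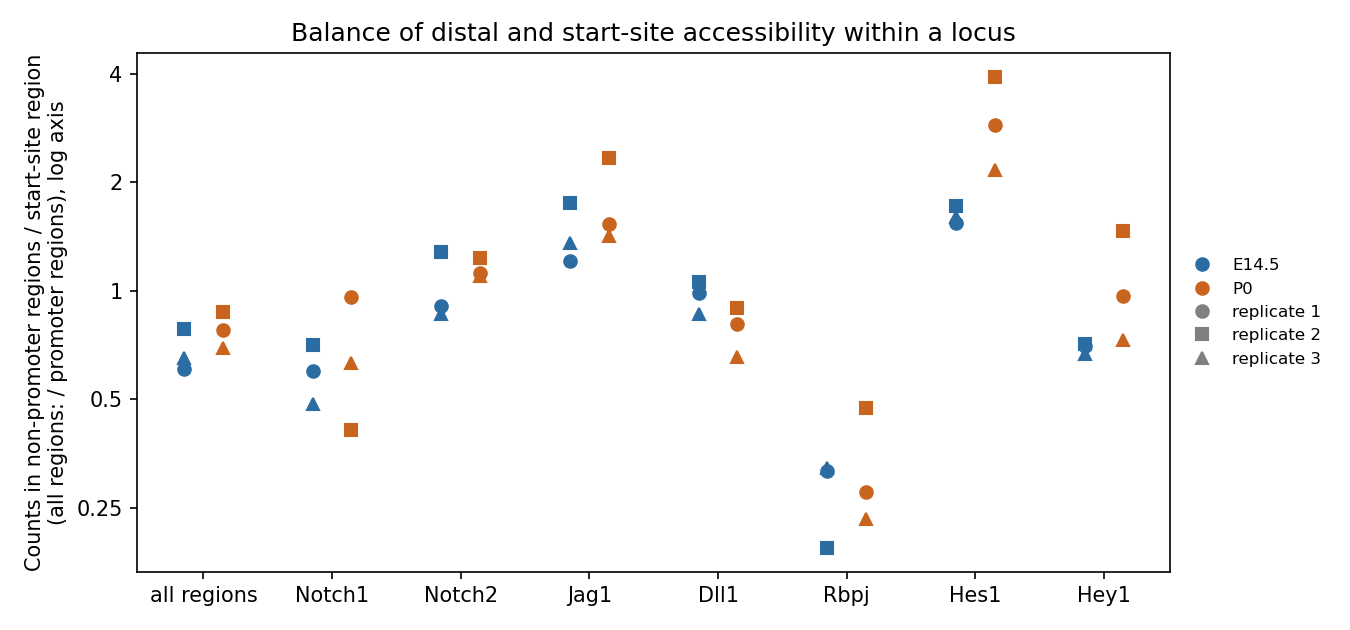
Ratio of counts in regions outside promoters to counts in the start-site region (y axis, log axis) for each library at 7 loci, and of counts outside promoters to counts in promoters over all regions at the left. Blue is E14.5, orange is P0 and symbols give the replicate; the stages separate upward at Hes1 and Hey1, and P0 replicate 2 is the highest orange point in both and over all regions.

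The regions of each gene were also summed. The ratio of mean summed CPM at P0 to that at E14.5 was 0.72 for Notch1, 0.85 for Notch2, 1.39 for Notch3, 1.19 for Jag1, 0.83 for Jag2, 0.96 for Dll1, 1.03 for Rbpj, 0.94 for Hes1, 1.01 for Hey1 and 0.94 for Heyl. The exact permutation p was 0.1 for Notch3, whose sum is its single neighbouring promoter, and 0.2 or more for the others, and the adjusted p-values over the 10 genes were 0.667 or more. Jag1 had 196, 211 and 177 summed CPM at E14.5 and 243, 199.9 and 252 at P0, so the lowest P0 library lay within the E14.5 range. On the log2 scale the Notch1 ratio was -0.47, and it was -0.16 without promoters of other genes and -0.25 without E14.5 replicate 1. The Notch2 ratio was -0.23, and -0.06 without P0 replicate 2. The Jag2 ratio was -0.27, and it was -0.14 without P0 replicate 2 or without promoters of other genes, and -0.39 without E14.5 replicate 2. The Jag1 ratio was 0.25, and 0.30 with a window of 10 kb around the gene (exact permutation p = 0.3). It became 0.50 when only regions with a midpoint within the gene were summed, which leaves out the start-site region. The exact permutation p was 0.1 there, the smallest that this test can give.

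The member regions differed from the whole table in the kind of region they hold: 48.8% are listed as promoters, against 32.4% of all regions, and 58.5% overlap an exon, against 36.0%. The shares of motif matches below are not adjusted for this, and no test was made of them. Listed Maz motif matches were in 12 of 41 regions, against 21.3% of all regions, and E2F matches in 8 of 41, against 15.2%. Forkhead matches were in 4 of 41 (9.76%), against 21.0%, and Six2 matches in 2 of 41, against 2.65%. The table lists 56 motif names, and 0 of them are Rbpj, Hes or Hey names. FANTOM enhancers overlapped 7 of the 41 (17.1%), against 9.65% of all regions, and these include the start sites of Notch1 and Rbpj.

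The wider pathway was described from a list of 46 other genes by role, each matched to RefSeq, with 177 regions by the same midpoint rule. Of these 177, 4 passed the test (2.26%, against 4.73% of all regions), 2 higher and 2 lower at P0, and in 43 (24.3%) the groups did not overlap, against 24.2% of all regions. Their median log2 fold change was -0.12. The median was 0.01 over all regions, -0.10 over all promoter regions and 0.10 over all regions outside promoters. The wider list was not split by kind of region, and no test was made of its median. A start-site region was found for 34 of the 46 genes, including all 9 genes of the enzymes that cleave the receptor. It was found for 1 of the 5 other ligands and receptors: Dner had one, and Dll3, Dll4, Notch4 and Dlk1 had none within 1 kb of a start. Among the 5 other targets, Hey2 had the highest mean start-site level, 142 CPM, and no region was found within 1 kb of the Hes5 and Hes7 starts. None of the 29 regions at the cleavage enzymes (Adam10, Adam17 and the presenilin complex), 44 at coactivators, 7 at corepressors and 21 at these targets passed the test.

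The 4 regions that passed lay at Dner, Mfng and Dtx4. Dner encodes a neuronal protein with Notch-binding repeats, and 2 regions within it changed in opposite directions. The region on chromosome 1 from 84417035 to 84418955 fell from 27.2, 23.9 and 30.9 CPM at E14.5 to 16.5, 15.9 and 15.9 CPM at P0 (log2 fold change -0.76, SE 0.19, adjusted p = 0.0333 in edgeR). The region from 84621092 to 84622037 rose from 8.54, 11.1 and 9.11 CPM to 22.8, 19.4 and 13.3 CPM (log2 fold change 0.94, SE 0.24, adjusted p = 0.0405 in edgeR). Near Mfng, which encodes a glycosyltransferase that modifies Notch receptors, a region outside the gene at a distance of 19.1 kb (chromosome 15, 78735218 to 78738306) rose from a mean of 19.5 ± 2.56 CPM to 34.7 ± 2.79 CPM (SD, n = 3 per stage; log2 fold change 0.83, SE 0.19, adjusted p = 0.0219 in edgeR). Within Dtx4, a Deltex ubiquitin ligase gene, the region on chromosome 19 from 12473012 to 12473716 fell from 9.25, 9.55 and 12.6 CPM to 5.00, 2.27 and 4.58 CPM (log2 fold change -1.37, SE 0.32, adjusted p = 0.0234 in edgeR). The groups did not overlap in any of the 4. Each of them lost the call in edgeR when E14.5 replicate 1, E14.5 replicate 3 or P0 replicate 1 was left out, where 0 of the 177 regions passed. In these 3 fits 2.53%, 0.779% and 1.09% of all regions passed, against 4.73% with all libraries. The log2 fold changes in these fits stayed between -1.57 and -1.22 at Dtx4, 0.74 and 0.82 near Mfng, -0.80 and -0.66 at the falling Dner region and 0.74 and 0.90 at the rising one. Leaving out P0 replicate 2 gave a count of 1, with 3.80% of all regions, and leaving out E14.5 replicate 2 gave 7, with 6.86% of all regions. The falling Dner region also missed the threshold in edgeR with total-count scaling (adjusted p = 0.0552) and without P0 replicate 3 (adjusted p = 0.0545). The rising one missed it with limma-voom (adjusted p = 0.0643).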

How the data were processed

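ATAC-seq was measured in 6 libraries, 3 per stage. The deposited table gives raw counts per region in mm10 (per the submitters' processing notes), with the authors' log2 fold changes and adjusted p-values. The aligner, the peak caller and its settings are not given in the sources used here. Of 45489 rows, 1966 repeated a region and were dropped. Columns linking regions to enhancer target genes were not used, because 1027 of 196063 links (0.524%) named a gene on the region's chromosome.

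Counts were fitted over all 43523 regions with edgeR 4.0.16 in R 4.3.3 (TMM scaling, filterByExpr, which removed 0 regions, glmQLFit and glmQLFTest, Benjamini-Hochberg adjustment, threshold 0.05), after a check on simulated data. DESeq2 1.42.0 and limma 3.58.1 served as alternatives, with other scalings, filters, windows, thresholds and left-out libraries. The members, gene lists and tests were chosen with earlier results of these data known. The rule for named regions took each gene's start-site region, its region with the highest mean CPM elsewhere, and regions with adjusted p under 0.05 or with unadjusted p under 0.05 and no overlap of groups. Of the wider list it took regions with adjusted p under 0.05. Other regions named were chosen after their values were seen. P-values measure the spread between litters.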

Additional observations from a re-analysis of the deposited data

How the results depend on the processing

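The count of member regions passing the test was 0 or 1 in every setting tried. It was 1, lower at P0, with the DESeq2 Wald test and with a threshold of 0.1, and 0 to 1 when a library was left out; none was higher at P0. The median log2 fold change of the members stayed between -0.07 and 0.08. Of the 177 regions of the wider list, 0 to 7 passed when a library was left out (0 to 5 higher, 0 to 3 lower), while 0.779% to 6.86% of all regions passed. With a threshold of 0.1 there were 10 (7 higher), against 8.02% of all regions (3.67% higher), and with 0.01 there were 0 in either direction, against 1.24%. DESeq2 called 6, and 6.38% of all regions. Total-count scaling called 4 (3 higher, 1 lower), and 4.47% of all regions. With a window of 10 kb 3 of 90 regions passed, and with the gene body alone 3 of 60, against 4.73% of all regions. In both windows 1 was higher and 2 were lower. Of the 41 member regions, 2 to 9 had an unadjusted p under 0.05 when a library was left out, against 12.1% to 23.2% of all regions. In the narrower windows, with all libraries, it was 2 of 20 and 2 of 14 regions, against 18.7% of all regions.

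Fold changes near 0 changed sign, and the cause was not tested. The Rbpj start site had 0.03 with total-count scaling. For summed accessibility, Dll1 had 0.00 with that scaling, 0.19 with 10 kb and with the gene body alone, and 0.05 without promoters of other genes; Rbpj had -0.00 without those promoters, Hey1 -0.16 with 10 kb, and Heyl 0.10 with each of the 3 windows. With a library left out, log2 values ran from -0.07 to 0.31 (Jag1 start site), -0.24 to 0.16 (Rbpj), -0.48 to 0.05 (Hey1) and -0.10 to 0.18 (Hey1 upstream flank), and the sums from -0.21 to 0.06 (Dll1), -0.07 to 0.15 (Rbpj), -0.26 to 0.06 (Hes1), -0.12 to 0.16 (Hey1) and -0.20 to 0.02 (Heyl).

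Libraries with the same replicate number came from separate litters. Their deviations correlated at 0.06, -0.13 and 0.09, and those of libraries with unlike numbers at -0.23 to 0.19. These values show no pairing by number. Whether libraries with the same number shared a processing step was not tested. With the replicate number as a block, 0 member regions and 4 of the wider list passed, and 1834 regions in all. The rising Dner region then had an adjusted p of 0.0525.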
